A study of Arabidopsis thaliana with 48 samples.

Results

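The 32 genes described here make up the jasmonate pathway of Arabidopsis as a list of locus identifiers defined by gene name, out of 34262 genes in the count table. They comprise 11 genes of synthesis (*LOX2*, *LOX3*, *LOX4*, *LOX6*, *AOS*, *AOC1* to *AOC4*, *OPR3*, *JAR1*), the receptor gene *COI1*, 3 transcription factor genes (*MYC2*, *MYC3*, *MYC4*), the 12 repressor genes *JAZ1* to *JAZ12*, the adaptor gene *NINJA*, the 2 storage protein genes *VSP1* and *VSP2*, and 2 genes of hormone breakdown (*CYP94B3*, *CYP94C1*). RNA was sequenced from excised 4th rosette leaves of wild-type Col-0 in 48 libraries, 3 replicates at each of 16 time points that ran in 0.5 h intervals from 19.5 h to 27 h after the pre-treatment ended. All groups shared the same handling and differed only in time: plants were 21 days old, leaves were cut at the petiole, floated on MES buffer, held for 24 h in darkness at 16 °C, and then kept in continuous white light at 22 °C. No intact leaf was among these libraries, so every value below is from wounded tissue. Nothing in the labels or methods states that replicates were separate plants or plates, so the p-values below reflect the scatter of these libraries alone, and that scatter may be technical.

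Jasmonates are hormones made from a plastid fatty acid. Lipoxygenases (LOX), allene oxide synthase (AOS) and allene oxide cyclases (AOC) act in the plastid, OPR3 acts in the peroxisome, and JAR1 joins jasmonic acid to isoleucine to give the active hormone. The hormone brings the receptor COI1 together with JAZ proteins, which are then degraded, and this frees the MYC factors that JAZ proteins hold in check together with the adaptor NINJA. MYC factors in turn switch on many *JAZ*, *LOX* and *AOC* genes, and the pathway is known for its fast response to wounding of leaves.

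A library held 23572988 to 38763552 counted reads, and 17562 genes had a mean of at least 1 CPM (read count scaled to library size with TMM factors) and were tested. Of the 32 genes, 28 passed this filter. The 4 that did not were *JAZ4* (mean 0.147 CPM), *JAZ7* (0.361 CPM), *JAZ8* (0.932 CPM) and *CYP94B3* (0.137 CPM). Leaf markers were abundant in all libraries, with 6 genes of light harvesting, Rubisco and carbonic anhydrase summing to between 17375 and 82716 CPM. In whole leaves, fewer cells of a type and less RNA per cell cannot be told apart.

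One library, the 26 h replicate 2, stood apart for the jasmonate genes and over all tested genes. It held the highest value of all 48 libraries for 18 of the 32 genes, or 15 of the 28 tested, against 19.9% of all tested genes. It lay at least 2-fold above the median of the other 47 libraries for 14 of the 32, or 11 of the 28 tested, against 6.02% of all tested genes. In any other library, at most 3 of the 28 and at most 2.2% of all tested genes reached this fold. The share of all tested genes with their highest value in a library was at most 4.3% elsewhere. In 26 h replicate 2, 9.4% of all tested genes lay at least 2-fold below the median of the other 47 libraries, against at most 3.51% in any other library. The results below are given with this library and, where it decides them, without it.

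**Figure D1:**
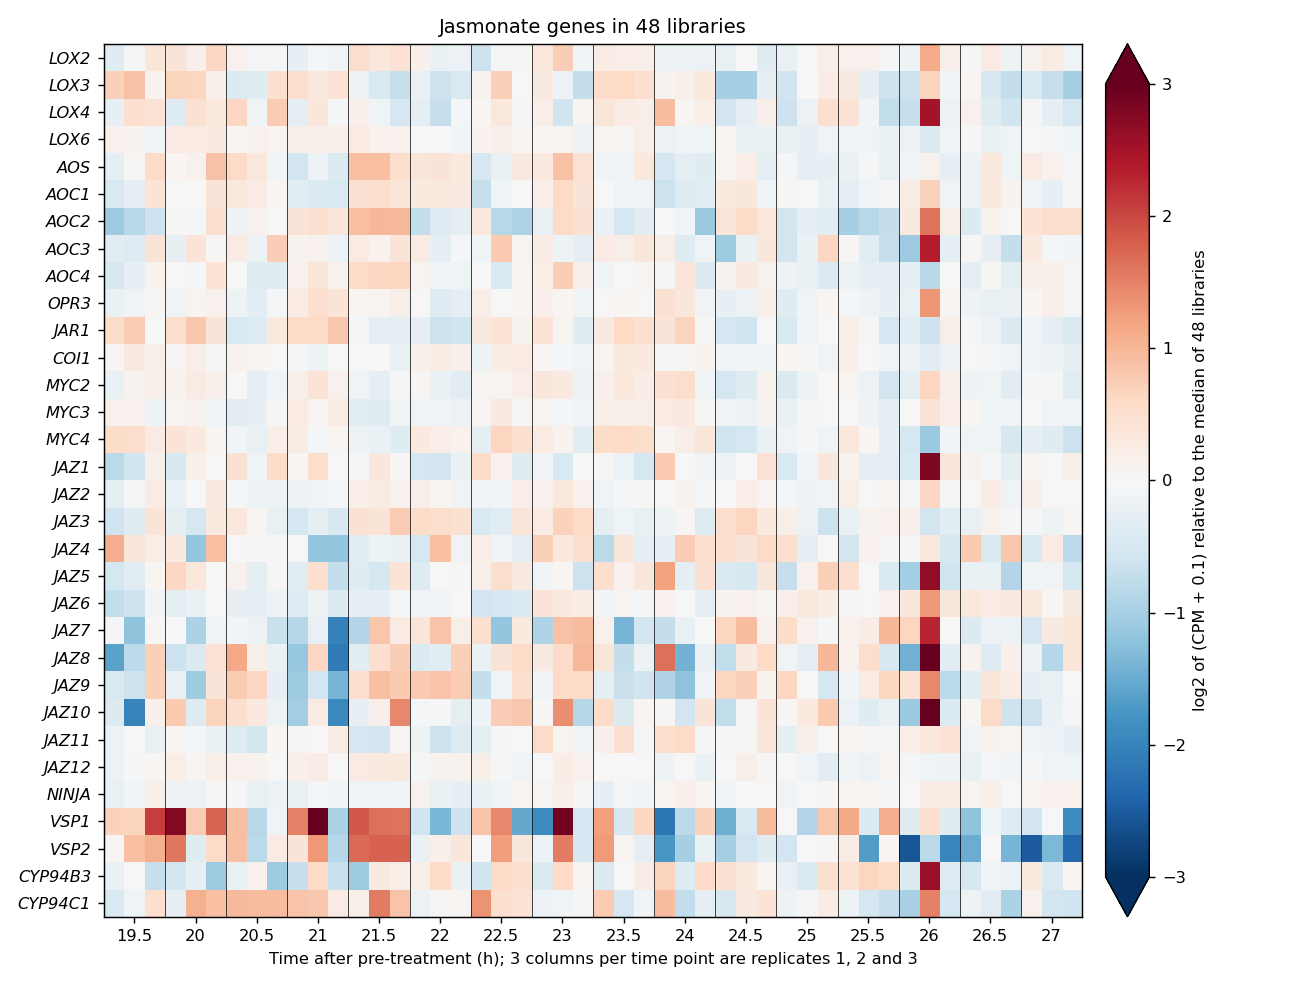
Each row is 1 of the 32 jasmonate genes and each column 1 of the 48 libraries, in time order with replicates 1, 2 and 3 side by side. Colour is the difference of log2(CPM + 0.1) from the gene's median, and the column of 26 h replicate 2 is red for most *LOX*, *AOC* and *JAZ* genes while *MYC4* and *AOC4* are blue there.

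Per length of annotated exons, the most abundant transcripts belonged to early synthesis. *AOS* had a mean of 181 CPM per kb and *LOX2*, the main leaf lipoxygenase of wound-induced jasmonate, 178 CPM per kb. *AOC2* followed with 101 CPM per kb. Among the repressors, the levels spanned from 75.4 CPM per kb for *JAZ12* and 55.5 CPM per kb for *JAZ6* to 0.078 CPM per kb for *JAZ4*. *CYP94B3*, which oxidises the active hormone, had 0.071 CPM per kb, the least of the 32.

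Over the 16 time points, 21 of the 28 tested genes changed (edgeR's quasi-likelihood test of all time terms, adjusted p under 0.05), against 64.0% of all tested genes. A slow linear trend over the window was called for 13 of the 28, against 55.5% of all genes. It was upward for 3 (29.7% of all genes) and downward for 10 (25.8% of all genes). The band of the ultradian rhythm that the study set out to find, 2 to 5 h, was tested here with terms from 4 to 2 h. At an adjusted p under 0.05, such variation was called for 1 of the 28, *AOC2*, against 6.39% of all genes. That count was 7 by DESeq2 (*LOX3*, *AOC2*, *AOC4*, *JAR1*, *MYC4*, *JAZ9*, *JAZ11*), 7 without both 22.5 h replicate 1 and 24 h replicate 3, 7 without replicate 3 and 0 without replicate 1 or replicate 2. With 26 h replicate 2 left out along with those 2 libraries, an alternative chosen after seeing the data, it was 10. Without 26 h replicate 2 alone it was 3, against 9.54% of all genes. The share of all genes under the other settings is not given here, so these counts are not read as a trait of the 28. The authors called genes with MetaCycle at an unadjusted p under 0.05. At an unadjusted p under 0.05, the edgeR test here passed *LOX3*, *AOC2*, *AOC4*, *JAR1*, *MYC2*, *MYC3*, *MYC4*, *JAZ9* and *JAZ11*, and 5164 of all 17562 tested genes. For periods under 2 h, 15 of the 28 were called, against 35.9% of all genes. Leaving out all 16 libraries of replicate 2 left 4 changed genes (*LOX6*, *AOC2*, *JAZ6*, *VSP2*), and the same test then called 1566 of all genes in place of 11236. Counts by role were 9 of 11 synthesis genes changed over time, all 3 *MYC* genes, 6 of the 9 tested *JAZ* genes, and *COI1*, *NINJA* and *VSP2*. The 7 tested genes without a call over time were *LOX4*, *AOC3*, *JAZ2*, *JAZ5*, *JAZ10*, *VSP1* and *CYP94C1*. *JAZ4*, which was not tested, ranged from 0 to 0.376 CPM.

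At the steps from 20.5 to 21 h and from 21 to 21.5 h, 5 and 6 of the 28 jasmonate genes were called, against 20.4% and 10.6% of all tested genes. *AOS* (AT5G42650), which makes the allene oxide precursor, was at 228, 298 and 252 CPM in replicates 1, 2 and 3 at 21 h, its lowest time point. At 21.5 h, its highest, *AOS* was at 630, 630 and 483 CPM. From 21 to 21.5 h, *AOS* rose by 1.17 on the log2 scale (edgeR adjusted p = 0.0065), after a fall of 0.67 from 20.5 to 21 h (edgeR adjusted p = 0.023, log2 change -0.67).

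*AOC1* to *AOC3* are tandem copies on chromosome 3 and *AOC4* lies on chromosome 1. All encode the cyclase that sets the stereochemistry of the hormone. Reads of such near-identical copies could be split between them by the counting, so their separate values are uncertain. *AOC1* was at 68.1, 63.8 and 61.7 CPM at 21 h and at 117, 123 and 110 CPM at 21.5 h. That rise, 0.85 on the log2 scale, passed the test (edgeR adjusted p = 0.0081). *AOC1* also rose from 22.5 to 23 h (0.64, edgeR adjusted p = 0.029) and from 24 to 24.5 h (0.64, edgeR adjusted p = 0.048). The latter step had 0 calls among the 28 without any 1 of the 3 libraries of 24 h, without 24.5 h replicate 1 or 2, and with DESeq2 size factors, library totals, no filter or limma-voom. It had 6 without 24.5 h replicate 3. Over all genes, that step had 379 calls with all libraries and 1241 without 24.5 h replicate 3. It had 0 over all genes without any 1 library of 24 h, or without 24.5 h replicate 1 or 2.

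*AOC2* (AT3G25770) had its highest mean at 21.5 h, with 231, 245 and 242 CPM, and then 75.1, 94.5 and 99.96 CPM at 22 h. The log2 change of that step was -1.42 (edgeR adjusted p = 0.012). Its lowest time point was 25.5 h, with 62.0, 69.2 and 74.8 CPM. For the 2 to 5 h variation of *AOC2*, the edgeR adjusted p was 0.029. No gene of the 28 was called when 1 library of 21 h, 23 h replicate 1, or 23.5 h replicate 2 or 3 was left out, and *JAR1* and *MYC4* joined *AOC2* without 26 h replicate 2. *AOC4* moved with *AOC2* from 21.5 to 22 h (log2 change -0.68, edgeR adjusted p = 0.046).

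*JAR1* (AT2G46370) moved opposite to *AOS* and *AOC1* around 21 h. It was at 144, 142 and 167 CPM at 21 h, its highest time point, and at 80.4, 61.3 and 63.4 CPM at 22 h, its lowest. *JAR1* rose by 0.81 on the log2 scale from 20.5 to 21 h (edgeR adjusted p = 0.012) and then changed by -0.87 from 21 to 21.5 h (edgeR adjusted p = 0.016).

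The remaining genes called at these steps were *MYC3*, *JAZ9* and *JAZ3*. *JAZ9* (AT1G70700), a repressor, was at 29.1, 42.0 and 23.5 CPM at 21 h, at 89.9, 116 and 107 CPM at 21.5 h, and at 107, 112 and 106 CPM at 22 h, its highest time point. The rise of *JAZ9* from 21 to 21.5 h was 1.72 on the log2 scale (edgeR adjusted p = 0.012), the largest of any called step among the 28. It followed a change of -1.45 from 20.5 to 21 h (edgeR adjusted p = 0.015). *JAZ3* rose by 0.97 from 21 to 21.5 h (edgeR adjusted p = 0.011), from 19.4, 23.3 and 20.0 CPM to 38.5, 37.0 and 47.6 CPM. *MYC3* (AT5G46760) changed less, by 0.37 and -0.45 at the 21 h and 21.5 h steps (edgeR adjusted p = 0.017 and 0.012). The calls at these steps depended on single libraries, over all genes as well as among the 28. At the 21 h step, 0 of the 28 were called without 20.5 h replicate 1 (1757 of all genes) or 21 h replicate 3 (2031). The count was 1 without 20.5 h replicate 2 (1720) and 3 without 21 h replicate 1 (2579). With all libraries, 3577 of all genes were called at that step and 1864 at the 21.5 h step. At the 21.5 h step, 0 of the 28 were called without 21.5 h replicate 2 (1 of all genes). The count was 1 without 21 h replicate 3 (50) and 3 without 21 h replicate 1 (445).

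Replicates were not alike at every time point. At 19.5 h, replicate 3 had 497 CPM of *AOS* and 102 CPM of *JAZ9*, while replicates 1 and 2 had 280 and 343 CPM of *AOS* and 45.6 and 39.6 CPM of *JAZ9*. At the same time point, *JAR1* was at 139 and 161 CPM in replicates 1 and 2 and at 95.7 CPM in replicate 3. No step from 19.5 to 20 h or from 20 to 20.5 h was called for any of the 28 (edgeR), against 0.364% and 0.0114% of all tested genes.

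**Figure D2:**
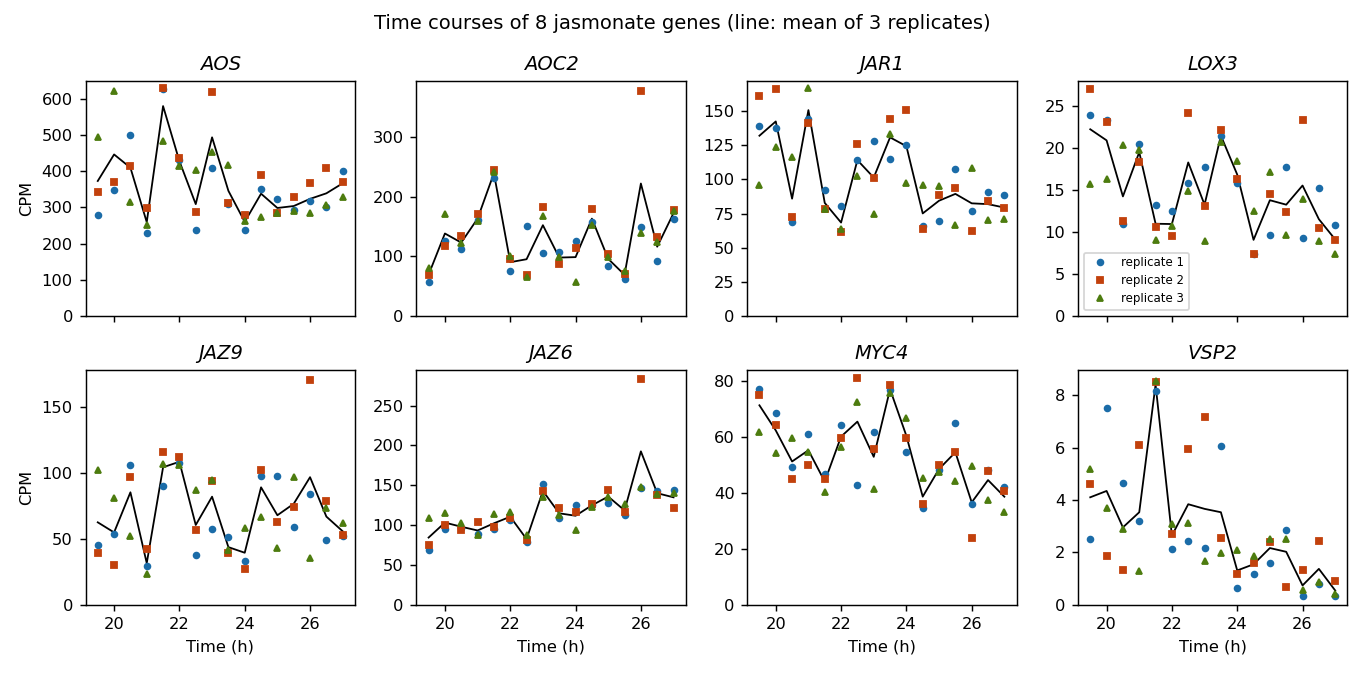
Levels of 8 jasmonate genes in CPM (vertical axes, starting at 0) against time in h, with a point for each library coloured by replicate and a line through the mean of the 3 replicates. *AOS*, *AOC2* and *JAZ9* have high means near 21.5 to 22 h, *JAR1* is highest at 21 h, and *VSP2* and *LOX3* end lower than they start.

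Away from 21 to 22 h, few steps were called. From 22.5 to 23 h, 2 of the 28 were called (5.15% of all genes), *AOC1* and *JAZ6*. *JAZ6* went from 79.0, 80.9 and 87.4 CPM to 151, 142 and 135 CPM, a rise of 0.80 on the log2 scale (edgeR adjusted p = 0.0037). At 26 h, its highest time point, *JAZ6* was at 147, 284 and 147 CPM. The step to 23 h had 1 call among the 28 without 22.5 h replicate 2 (468 of all genes) or 23 h replicate 2 (503) or 3 (328). It had 3 and 4 without 22.5 h replicate 1 (1506) and replicate 3 (967). All libraries together gave 905 calls over all genes at that step. From 21.5 to 22 h and from 24 to 24.5 h, 2 and 1 of the 28 were called, against 2.25% and 2.16% of all genes. The step to 22 h, with 395 of all genes called, had 0 without 21.5 h replicate 2 (22 of all genes), 22 h replicate 1 (49) or 22 h replicate 2 (13). It had 1 without 21.5 h replicate 1 (75), 21.5 h replicate 3 (529) or 22 h replicate 3 (85). The steps to 23.5 h (2.11% of all genes) and to 24 h (1.04%) gave 0 of the 28 by edgeR. The steps that rest on the 26 h libraries are given with that time point.

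Of the 13 slow trends, 3 were upward. *JAZ6* (AT1G72450) rose most, by 0.76 in log2 units over the window (edgeR, SE 0.09, adjusted p = 2.9e-08). It was at 69.3, 75.3 and 108 CPM at 19.5 h and at 144, 121 and 140 CPM at 27 h. *JAZ11* rose by 0.27 (SE 0.10, edgeR adjusted p = 0.027) and *NINJA*, which links JAZ proteins to a corepressor, by 0.23 (SE 0.05, edgeR adjusted p = 0.00031).

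The downward trends were steepest for the vegetative storage proteins, which are classic jasmonate-induced genes of leaves. *VSP2* (AT5G24770) was at 8.17, 8.50 and 8.55 CPM at 21.5 h, its highest time point, and at 0.346, 0.898 and 0.395 CPM at 27 h, its lowest. Its log2 trend was -2.60 (SE 0.38, edgeR adjusted p = 8.4e-07). *VSP1* changed by -2.14 (SE 0.61, edgeR adjusted p = 0.0039), and its libraries scattered widely, from 0.268 to 7.90 CPM among the 3 replicates of 21 h alone. *VSP1* and *VSP2* are neighbouring copies on chromosome 5, so reads could be split between them, and both were low, with *VSP2* at a mean of 2.92 CPM.

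*LOX3* (AT1G17420), a lipoxygenase of the wound response, was at 24.0, 27.0 and 15.7 CPM at 19.5 h and at 7.35, 7.34 and 12.5 CPM at 24.5 h, its highest and lowest time points. Its trend was -0.73 (SE 0.17, edgeR adjusted p = 0.00072). *CYP94C1*, an oxidase of the active hormone, changed by -0.999 (log2, SE 0.28, edgeR adjusted p = 0.0032) from a low level. *MYC4* was at 77.0, 78.6 and 75.9 CPM at 23.5 h and at 36.2, 24.1 and 49.7 CPM at 26 h. Its trend was -0.60 (SE 0.11, edgeR adjusted p = 4.8e-05), as was that of *JAR1* (-0.60, SE 0.13, edgeR adjusted p = 0.00027). *AOS* (-0.37), *LOX6* (-0.36), *JAZ12* (-0.24) and *COI1* (-0.22) fell by less. The median trend of the 28 was -0.06, and that of all tested genes 0.03.

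Scaling decides part of this direction. With library totals in place of TMM, the median trend of all tested genes moved by 0.29, to 0.32. Slow trends were then called upward for 9 of the 28 and downward for 5. Over all tested genes, they were called upward for 11019 and downward for 1635, in place of 5216 and 4539. *COI1* (0.072) and *JAZ12* (0.058) then had the opposite sign without passing the test, and the trends of *AOS*, *LOX6* and *JAR1* no longer passed. *JAZ6*, *JAZ11*, *NINJA*, *LOX3*, *MYC4*, *VSP1*, *VSP2* and *CYP94C1* were called in the same direction under either scaling. Some calls also rest on 1 replicate number. Without replicate 1, the slow trend of *JAZ11* (0.30) and the slow trend of *VSP1* (-1.71) no longer passed. Without replicate 2, the same held for the slow trend of *COI1* (-0.18), the slow trend of *JAZ11* (0.19) and the slow trend of *NINJA* (0.18), and without replicate 3 for the slow trend of *AOS* (-0.17) and the slow trend of *CYP94C1* (-0.70). Of the single libraries, 20.5 h replicate 2 ended the call of *JAZ11* (0.24, edgeR adjusted p = 0.053).

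**Figure D3:**
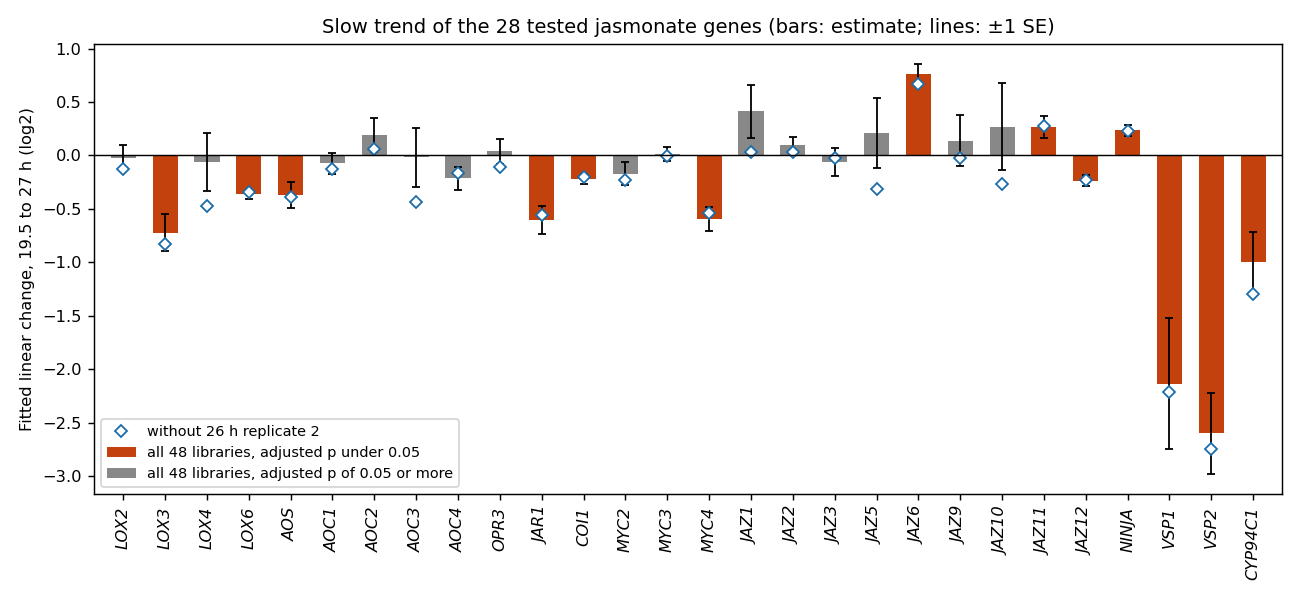
Bars show the fitted linear change from 19.5 to 27 h (log2) of the 28 tested jasmonate genes with lines of 1 SE, coloured by whether the edgeR adjusted p was under 0.05, and diamonds show the estimate without 26 h replicate 2. *JAZ6* has the largest rise (0.76) and *VSP2* the largest fall (-2.60), and the diamonds of *LOX4*, *AOC3*, *JAZ1*, *JAZ5* and *JAZ10* lie below their bars.

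The 26 h replicate 2 held the largest departures of single values in the list. Windows of 250 bases before the annotated gene start are shown for genes that reached far above the other libraries there (*JAZ8*, *JAZ7*, *LOX4*) and for *JAZ3*, which did not and whose window holds the most G-boxes of the 32. The G-box, CACGTG, and its variants CACATG and AACGTG, searched on both strands, are sequences that MYC factors are known to bind. Sequences are from RefSeq, assembly TAIR10.1, in the direction of transcription, with matches in capitals. The windows lie at chr1:10596102-10596351 (+) for *JAZ8*, chr2:14572780-14573029 (+) for *JAZ7*, chr1:27308263-27308512 (+) for *LOX4* and chr3:6119457-6119706 (+) for *JAZ3*.
JAZ8: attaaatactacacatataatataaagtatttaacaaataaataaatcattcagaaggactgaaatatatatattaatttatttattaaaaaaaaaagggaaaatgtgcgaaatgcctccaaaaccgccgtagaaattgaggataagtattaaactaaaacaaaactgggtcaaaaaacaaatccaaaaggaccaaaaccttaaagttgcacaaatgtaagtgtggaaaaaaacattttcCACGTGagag
JAZ7: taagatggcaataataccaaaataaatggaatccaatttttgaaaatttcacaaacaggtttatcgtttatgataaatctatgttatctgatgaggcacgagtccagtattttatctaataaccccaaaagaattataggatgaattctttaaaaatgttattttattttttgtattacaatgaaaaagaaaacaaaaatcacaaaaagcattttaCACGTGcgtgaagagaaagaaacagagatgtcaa
LOX4: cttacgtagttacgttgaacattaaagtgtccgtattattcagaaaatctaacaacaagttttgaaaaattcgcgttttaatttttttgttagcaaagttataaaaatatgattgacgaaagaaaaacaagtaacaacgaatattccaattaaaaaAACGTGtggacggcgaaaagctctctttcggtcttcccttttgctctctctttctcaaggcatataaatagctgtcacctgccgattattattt
JAZ3: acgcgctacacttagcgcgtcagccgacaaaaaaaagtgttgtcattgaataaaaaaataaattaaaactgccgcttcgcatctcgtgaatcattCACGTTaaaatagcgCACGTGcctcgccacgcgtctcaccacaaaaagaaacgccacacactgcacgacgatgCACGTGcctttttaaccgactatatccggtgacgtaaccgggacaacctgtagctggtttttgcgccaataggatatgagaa
A match is a description of letters and not a bound site.

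Of the 32 windows, 5 held a G-box (*AOS*, *JAZ2*, *JAZ3*, *JAZ7*, *JAZ8*), against 6.49% of the windows of 27443 protein-coding genes. CACATG was in 7 (11.1% of all windows) and AACGTG in 8 (7.54%). Any of the 3 was in 19 of 32, against 22.8% of all windows. Among the 14 genes at least 2-fold up in 26 h replicate 2, 9 windows held a match, and among the other 18 genes 10 did. Of those 14, *CYP94B3* (10.9-fold above the median of the other 47 libraries), *JAZ1*, *AOC3*, *AOC2* and *OPR3* had none within these 250 bases.

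*JAZ8* (AT1G30135), whose protein is known to resist hormone-induced degradation, was at 27.2 CPM (1055 reads) in 26 h replicate 2. It was at 0.060 and 0.244 CPM in replicates 1 and 3 of the same time point, 2 and 8 reads. No other library exceeded 1.27 CPM, and the value was 89.6-fold above the median of the other 47. *JAZ7*, a close relative of *JAZ8*, was at 1.91 CPM against at most 0.717 CPM elsewhere. *JAZ1* (AT1G19180) was at 158 CPM, against 16.4 and 29.2 CPM in replicates 1 and 3 and at most 39.4 CPM in any other library. At 22 h, its lowest time point, *JAZ1* was at 15.8, 15.4 and 19.7 CPM. *JAZ10* (584 reads against 26 and 44) and *JAZ5* (13.6 CPM against 0.959 and 1.31 CPM) were likewise highest in this library, and the highest of the other 47 were 5.14 CPM for *JAZ10* and 4.86 CPM for *JAZ5*.

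Synthesis and breakdown genes were high in the same library. *LOX4* (AT1G72520) was at 83.7 CPM, against 9.05 and 13.0 CPM in replicates 1 and 3. *AOC3* was at 38.1 CPM, against 3.38 and 5.94 CPM. *OPR3*, which reduces the cyclic precursor in the peroxisome, was at 99.6 CPM against 33.8 and 42.1 CPM, and *LOX2* at 1163 CPM against 486 and 604 CPM. *AOC2*, *JAZ9*, *JAZ6* and *CYP94C1* were also at least 2-fold above the median of the other 47 libraries, between 2.47-fold for *JAZ6* and 3.09-fold for *AOC2*, though 1 other library exceeded it for *CYP94C1*. *CYP94B3* had 46 reads there (1.18 CPM), against at most 0.236 CPM in any other library.

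Other members were lower there, or higher by less. *MYC4* was at 0.442 of the median of the other libraries, *AOC4* at 0.555, *LOX6* at 0.730 and *COI1* at 0.797, each the lowest of the 48. *JAR1* was at 0.650 of that median, with 1 library below it. *VSP1* (0.901 CPM) and *VSP2* (1.34 CPM) lay within the range of the other libraries. *MYC2* (80.9 CPM) and *MYC3* (129 CPM) were highest of the 48 there, at 1.58-fold and 1.32-fold of the median. The library held 34854866 reads, and 22407 genes were detected in it, both within the range of the series.

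**Figure D4:**
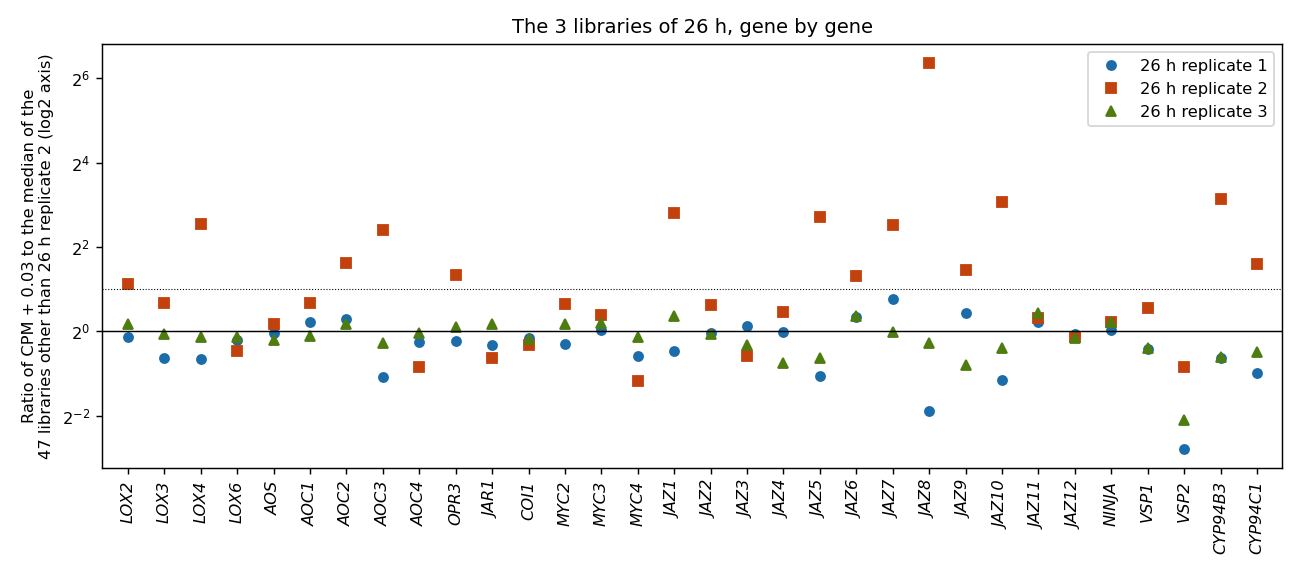
For each of the 32 jasmonate genes, the vertical axis (log2 scale) gives the ratio of CPM + 0.03 in each of the 3 libraries of 26 h to the same for the median of the other 47 libraries. Replicate 2 lies above the dotted line of 2-fold for 14 genes, replicates 1 and 3 for none.

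Genes outside the 32 moved in the same library, and their part in the result was not tested. Of 12 genes of fast wound and touch response, 7 were highest in 26 h replicate 2, all of them among the 10 tested, against 19.9% of all tested genes. *TCH2*, *TCH4*, *DIC2*, *CML39* and *ERF109* were not highest there. The list summed to 1183 CPM against 277 to 756 CPM elsewhere, and *TCH3* alone gave 695 CPM of that sum. The 6 leaf markers summed to 17375 CPM against 34212 to 82716 CPM, and 5 epidermis markers to 455 CPM against 657 to 1434 CPM. Guard cell markers summed to 61.6 CPM (38.5 to 64.5 elsewhere) and vasculature markers to 644 CPM (563 to 1251 elsewhere). Both sums lay within the range of the other libraries, though *AHA3* gave 410 CPM of the second. *SUC2*, *ATHB8*, *XCP1* and *XCP2* had their lowest values there, at 0.598, 0.524, 0.382 and 0.363 of the median of the other libraries. *AHA3* and *APL* lay within range. Of the guard cell markers, *KAT1* was highest there (1.75-fold of that median) and *SLAC1* lowest (0.641). *MYB60*, *FAMA* and *HT1* lay within range. No marker of these 4 lists was at least 2-fold above the median there.

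Most calls at the step from 25.5 to 26 h rested on this library. With all libraries, 5 of the 28 were called, all higher, against 9.8% of all genes in either direction: *AOC2* (1.66 on the log2 scale), *JAZ1* (1.65), *OPR3* (0.70), *JAZ6* (0.69) and *MYC3* (0.34), with edgeR adjusted p between 0.0051 and 0.045. Without 26 h replicate 2, the estimates were 1.09 for *AOC2*, 0.10 for *JAZ1*, 0.09 for *OPR3*, 0.31 for *JAZ6* and 0.24 for *MYC3*, and none of the 28 passed. No tested gene of the table passed at that step then by edgeR, with 2483 at an unadjusted p under 0.05. When 22.5 h replicate 1 and 24 h replicate 3 were left out along with 26 h replicate 2, 1 of the 28 was called at this step. The count over all genes under that setting is not given here. Left out singly, 25.5 h replicate 1 or 2 left 1 call among the 28 at this step (175 and 117 of all genes). Leaving out 26 h replicate 1 or 3, which leaves replicate 2 as 1 of 2 libraries, gave 10 (2841 and 2959 of all genes). At the step from 26 to 26.5 h, 0 of the 28 and 0 of all genes were called with all libraries, and likewise without 26 h replicate 2. Without 26 h replicate 1 or 3, 8 and 7 of the 28 were called there (617 and 921 of all genes). Without 26 h replicate 2, *JAZ1* was also no longer called over time (edgeR adjusted p = 0.31), while *CYP94C1* was (edgeR adjusted p = 0.0041).

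Most other calls were made without it as well. The count of changed genes was 21 of 28 again, against 65.3% of all genes. Downward trends were called for 12, against 4542 of all 17533 tested genes. *LOX4* (-0.47, edgeR adjusted p = 0.034) and *AOC3* (-0.44, edgeR adjusted p = 0.043) were added to the same 10. The upward trends of *JAZ6* (0.67), *JAZ11* (0.27) and *NINJA* (0.23) were called as before, and 5023 of all tested genes were called upward.

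**Figure D5:**
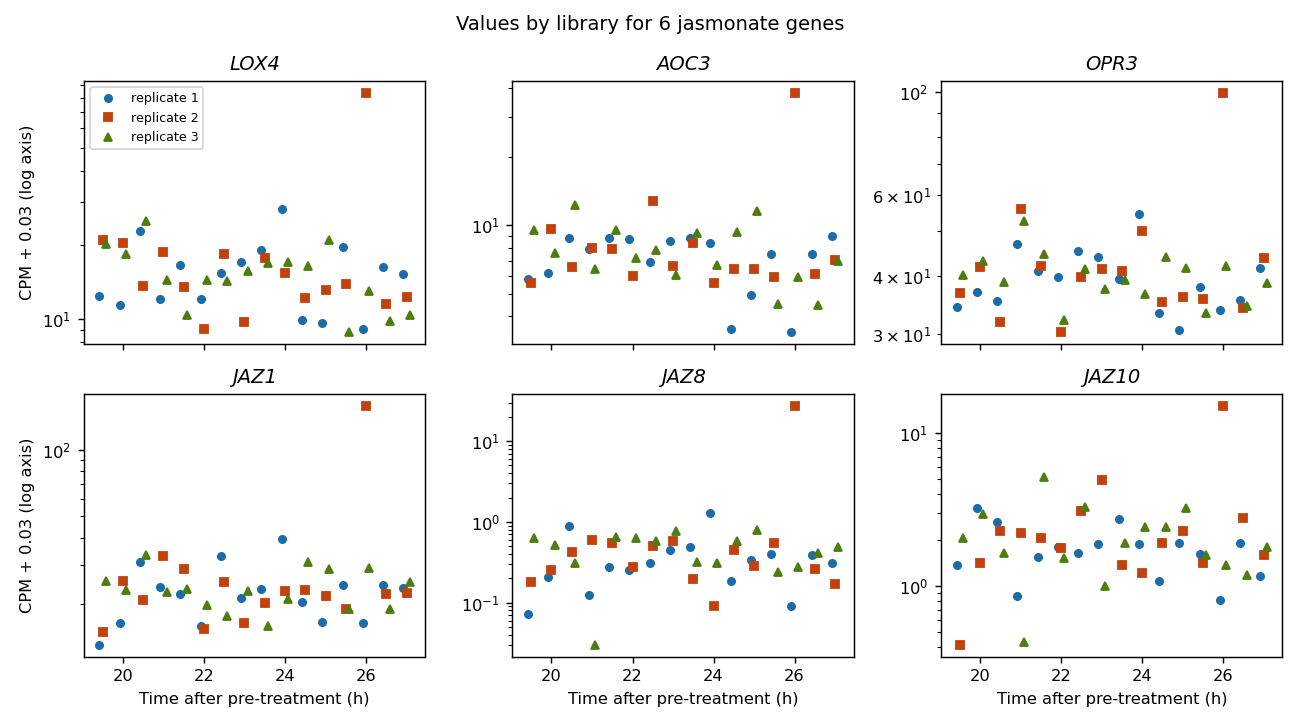
CPM + 0.03 on log axes against time in h for *LOX4*, *AOC3*, *OPR3*, *JAZ1*, *JAZ8* and *JAZ10*, with 1 point per library and symbols by replicate. In all 6 panels the point of 26 h replicate 2 is the highest of the 48, and for *LOX4*, *JAZ1* and *JAZ8* the highest of the others is 24 h replicate 1.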

How the data were processed

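RNA sequencing libraries of excised leaves were made from total RNA. Raw read counts for 34262 genes, with no scaling, are what the authors deposited. Per the study's methods and the submitters' processing notes, reads were checked with FastQC, mapped to TAIR10 with STAR and counted with HTSeq. Tool versions and the strand setting were not given in the sources used, so reads from overlapping antisense genes cannot be told apart. Group and replicate came from the sample titles.

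CPM values were computed here with TMM factors. edgeR 4.0.16 (R 4.3.3, limma 3.58.1) fitted all 48 libraries in 1 quasi-likelihood model with 15 orthonormal time terms and the replicate number, leaving 30 residual degrees of freedom, for the 17562 genes whose mean reached 1 CPM. Benjamini-Hochberg adjustment ran over all of them at 0.05. The linear term gives the slow trend, 6 terms from 4 to 2 h the 2 to 5 h variation, and 7 terms the faster variation. The remaining term, a quadratic one, belongs to none of these and enters the test of all time terms. No term had a period between 4 and 5 h. Each time point was also tested against the one before it. MetaCycle, which the authors used, is not installed here, and the 6-term test stands in for it. The authors took an unadjusted p under 0.05, while the calls here use an adjusted p. The tests were checked on simulated data first. No replicate pair was a copy of another (lowest chi-square per degree of freedom 7.781).

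The rule for members uses gene names only, but members and lists were proposed with earlier results of these data known. All 32 members are named. Library values are given at the highest and lowest time points for members with a mean of at least 10 CPM that changed over time with a log2 range above 1, and other library values were chosen after they were seen. Of the 34 other jasmonate genes, the 6 with the smallest p over time are named. Gene positions, exon lengths and windows are from RefSeq TAIR10.1, while the authors mapped to TAIR10. Alternatives were other scalings, filters, no replicate block, DESeq2 1.42.0, limma-voom, and libraries or replicates left out. The sequencing of *eur1-11* petioles was not analysed here.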

Additional observations from a re-analysis of the deposited data

How the results depend on the processing

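The count of genes with a slow trend (13 of 28 tested) stayed between 10 and 16 under all settings run, and that of genes changed over time (21) lay between 17 and 24 except without replicate 2, where it was 4. Counts of 2 to 5 h variation and of 0.5 h steps depended most on the setting. The first was 1 gene, and 2 with a filter at 5 CPM, 7 with DESeq2, and 7 without both 22.5 h replicate 1 and 24 h replicate 3. The called steps, 21 over 15 steps, were 32 with DESeq2 and 36 without those 2 libraries. With 26 h replicate 2 also left out, an alternative chosen after seeing the data, 10 genes had 2 to 5 h variation and 49 steps were called. The share of all genes with 2 to 5 h variation also moved with the setting, from 6.39% to 9.54% without 26 h replicate 2 alone. Leaving out a replicate number or a single library gave 4 to 24 genes changed over time, 10 to 15 with a slow trend, 0 to 7 with 2 to 5 h variation and 0 to 18 with faster variation. Steps ranged from 1 (without replicate 2) to 39 (without replicate 3). For single libraries, all 15 steps were refitted only without 26 h replicate 2 (23 called), and otherwise only the steps that touch the time point of the library left out. With library totals, the trends of *COI1* and *JAZ12* reversed to 0.072 and 0.058. The cause of these changes was not tested.

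Whether replicate numbers pair the libraries was left undecided. The mean correlation of deviations was -0.037 within a number and 0.018 across numbers. Within a number, 31.9% of pairs exceeded 0.1 and the lowest was -0.76. With 3 replicate numbers in all, 24 of 48 libraries were closest to one of their own number. With no replicate block, 23 genes changed over time, 3 had 2 to 5 h variation and 23 steps were called. Genes under 1 CPM on average (*JAZ4*, *JAZ7*, *JAZ8*, *CYP94B3*) are limited by depth.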

Other observations

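Of 34 other jasmonate genes (further synthesis, breakdown, co-regulators and defence targets), 28 were tested and 21 changed over time by edgeR. They had 12 upward and 6 downward slow trends, and 3 were called for 2 to 5 h variation. Over all tested genes, 64.0% changed, 29.7% rose, 25.8% fell and 6.39% had 2 to 5 h variation. The 6 with the smallest p over time were *PDF1.2b*, *PDF1.2a*, *LOX5*, *CORI3*, *ST2A* and *JAM3*. *PDF1.2b*, a plant defensin gene of the joint jasmonate and ethylene branch, had a log2 slow trend of 3.26 (SE 0.52, edgeR adjusted p = 4.0e-06), and of 2.55 without 26 h replicate 2. The trend of *PDF1.2a* was 1.70 (edgeR adjusted p = 0.0095) and 0.95 without that library (edgeR adjusted p = 0.066). *ST2A*, a sulfotransferase that acts on a hydroxylated jasmonate, rose by 1.58 (edgeR adjusted p = 0.00038), and by 1.26 without it. *LOX5* (-0.50) and *JAM3* (-0.33), a repressor of MYC targets, fell.

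In 26 h replicate 2, 22 of the 34 were at their highest of 48 libraries, against 19.9% of all tested genes. At least 2-fold above the median of the other 47 were 17 of the 34, against 6.02% of all tested genes. Both counts include *JAZ13* and *CYP94B1*, which were under the filter of 1 CPM and not tested. The genes named next were chosen after their values were seen. *NATA1*, a jasmonate-induced acetyltransferase, was at 806 CPM, against 4.34 and 7.83 CPM in replicates 1 and 3. *PDF1.2a* was at 319 CPM against 4.61 and 20.2 CPM, *LOX1* at 467 CPM against 12.7 and 35.6 CPM, *JOX4*, an oxidase of jasmonic acid, at 68.3 CPM against 1.80 and 3.17 CPM, and *ERF1* at 30.5 CPM against 1.08 and 1.49 CPM.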
